A study of Homo sapiens with 6 samples.

Results

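The 46 genes described here code for proteins of autophagy and mitophagy. They were taken by symbol from the deposited table of 38637 genes, and all 46 were found. They comprise 7 genes of mitophagy, namely 6 receptors and the kinase gene PINK1, and 39 genes of the general autophagy machinery, its cargo receptors and the lysosome. The list was chosen for its values in this comparison, with the fall of BNIP3 set against the core autophagy genes, so the values of its members are given as a description and carry no test in their support. RNA was sequenced from OVCAR8, an established human ovarian carcinoma line, after 72 h with the vehicle DMSO or with 2 nM pladienolide B, a small molecule that binds the splicing factor SF3B1. Each group had 3 samples. The labels name no genetic change in either group and do not say whether the samples were separate cultures, so the spread between them may be technical.

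Autophagy encloses cytoplasm in a double membrane, the autophagosome, and delivers it to the lysosome. The ULK1 kinase complex starts the process, a lipid kinase complex around PIK3C3 and BECN1 marks the membrane, ATG2 and ATG9 proteins supply lipid, and a conjugation system attaches proteins of the ATG8 family (the LC3 and GABARAP proteins) to the membrane. In mitophagy the cargo is a mitochondrion. Receptors such as BNIP3 and BNIP3L sit in the outer mitochondrial membrane and bind ATG8 proteins directly, while PINK1 is a kinase that accumulates on damaged mitochondria. BNIP3 and BNIP3L are known targets of the hypoxia-inducible factors (HIF), and many lysosomal genes are targets of TFEB and TFE3.

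The promoters of 4 members are shown because these genes had the largest fall (BNIP3) and, among members of high level, the clearest rises (SQSTM1, MAP1LC3B and LAMP1). Each sequence is the 250 bases before a start site in RefSeq, build GRCh38.p14, written 5′ to 3′ on the strand of the gene. Where a gene had several starts, the one nearest the start of the canonical GENCODE transcript was taken. The deposited position of SQSTM1 is chr5:179806393-179838078, so its window lies inside that span and not before it. Capitals mark the letters ACGTG on either strand, a form of the core of the hypoxia response element and the only form searched. Where ACGTG is preceded by C the site also reads CACGTG, so that 2 motifs overlap. CACGTG is the core of the element bound by TFEB and TFE3. BNIP3 lies on the minus strand at chr10:131981924-131982173, SQSTM1 on the plus strand at chr5:179820655-179820904, MAP1LC3B on the plus strand at chr16:87392086-87392335 and LAMP1 on the plus strand at chr13:113296989-113297238.
BNIP3: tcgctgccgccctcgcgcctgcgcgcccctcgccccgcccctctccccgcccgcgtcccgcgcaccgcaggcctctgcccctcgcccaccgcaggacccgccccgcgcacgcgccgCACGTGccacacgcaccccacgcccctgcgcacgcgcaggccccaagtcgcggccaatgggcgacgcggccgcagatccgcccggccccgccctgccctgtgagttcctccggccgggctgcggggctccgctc
SQSTM1: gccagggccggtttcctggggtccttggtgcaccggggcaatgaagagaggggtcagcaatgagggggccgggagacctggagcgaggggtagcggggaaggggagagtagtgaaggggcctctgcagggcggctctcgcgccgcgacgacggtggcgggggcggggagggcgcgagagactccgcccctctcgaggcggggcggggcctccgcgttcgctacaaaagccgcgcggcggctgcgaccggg
MAP1LC3B: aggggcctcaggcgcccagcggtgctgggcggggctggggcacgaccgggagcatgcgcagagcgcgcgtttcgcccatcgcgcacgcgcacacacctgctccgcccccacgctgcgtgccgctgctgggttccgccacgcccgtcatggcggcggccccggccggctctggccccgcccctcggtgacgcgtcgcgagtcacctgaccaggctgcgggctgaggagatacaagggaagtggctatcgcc
LAMP1: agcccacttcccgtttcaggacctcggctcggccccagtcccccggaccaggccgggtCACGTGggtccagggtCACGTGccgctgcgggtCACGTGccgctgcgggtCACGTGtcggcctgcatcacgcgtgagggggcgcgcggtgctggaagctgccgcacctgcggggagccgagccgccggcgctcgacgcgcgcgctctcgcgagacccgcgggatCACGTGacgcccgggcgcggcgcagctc

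The BNIP3 window held 1 ACGTG site, which begins 134 bases before the start and reads CACGTG. The LAMP1 window held 5 such sites, and those of SQSTM1 and MAP1LC3B held no ACGTG. In the same table, 38 members had an entry, and 12 of them (31.6%) had ACGTG in the 250 bases, against 20.9% of 15842 promoters of protein-coding genes. CACGTG was found in 4 of the 38 (10.5%), against 7.9% of all. The 4 were ATG3, ATG14, BNIP3 and LAMP1. Among the mitophagy genes, BNIP3L, FKBP8 and PINK1 had no entry, so their promoters were not searched. A match describes the letters in these windows only.

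Levels are given as adjusted reads, the deposited values, which are read counts scaled by the authors to a common library size. The sequencing depth was 22621338 to 26130882 reads on genes per sample. DMSO replicate 2 stood apart from the other DMSO samples: the chi-square of its counts per degree of freedom was 7.31 and 7.24 against replicates 1 and 3, which differed from each other by 1.98, while the pladienolide B samples differed by 3.09 to 4.56. Results are therefore also given without it where it matters. Epithelial markers KRT7, KRT8 and KRT18 and the lineage factor PAX8 were at 4011 adjusted reads or more in every sample, whereas EPCAM was at 431 to 513, and KRT19, WT1 and MUC16 were at 34 or fewer. The leukocyte markers PTPRC and CD3E and the erythroid markers HBB and HBA1 had at most 2.0 adjusted reads in every sample.

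Of the 46 members, 45 passed the filter on low values, and only MAP1LC3A did not. A difference was called when limma gave an adjusted p below 0.05 across all 16178 genes tested. By this rule 30 of the 45 members were called, 15 higher and 15 lower in pladienolide B, which is 66.7%. The background is high, since 47.6% of all genes were called, 22.4% as higher and 25.2% as lower. The groups did not overlap for 34 members (75.6%), against 55.3% of all genes. As the members were chosen for this comparison, nothing is read from these shares. Without DMSO replicate 2, 31 members were called, 15 higher and 16 lower.

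Most members differed by less than 0.5 on the log2 scale. The median log2 fold change of the members was 0.08, beside -0.0042 for all genes, but rises and falls cancel in this value. The median size regardless of direction was 0.25, beside 0.23 for all genes. A difference of 0.5 or more in either direction was seen in 5 of 45 members (11.1%), against 18.8% of all genes. BNIP3 was the single member that fell at least 2-fold, a class that held 1.98% of all genes. In this bulk RNA, fewer cells expressing a gene and less RNA per cell cannot be told apart, and spliced and intron-retaining transcripts of a gene are not separated.

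**Figure D1:**
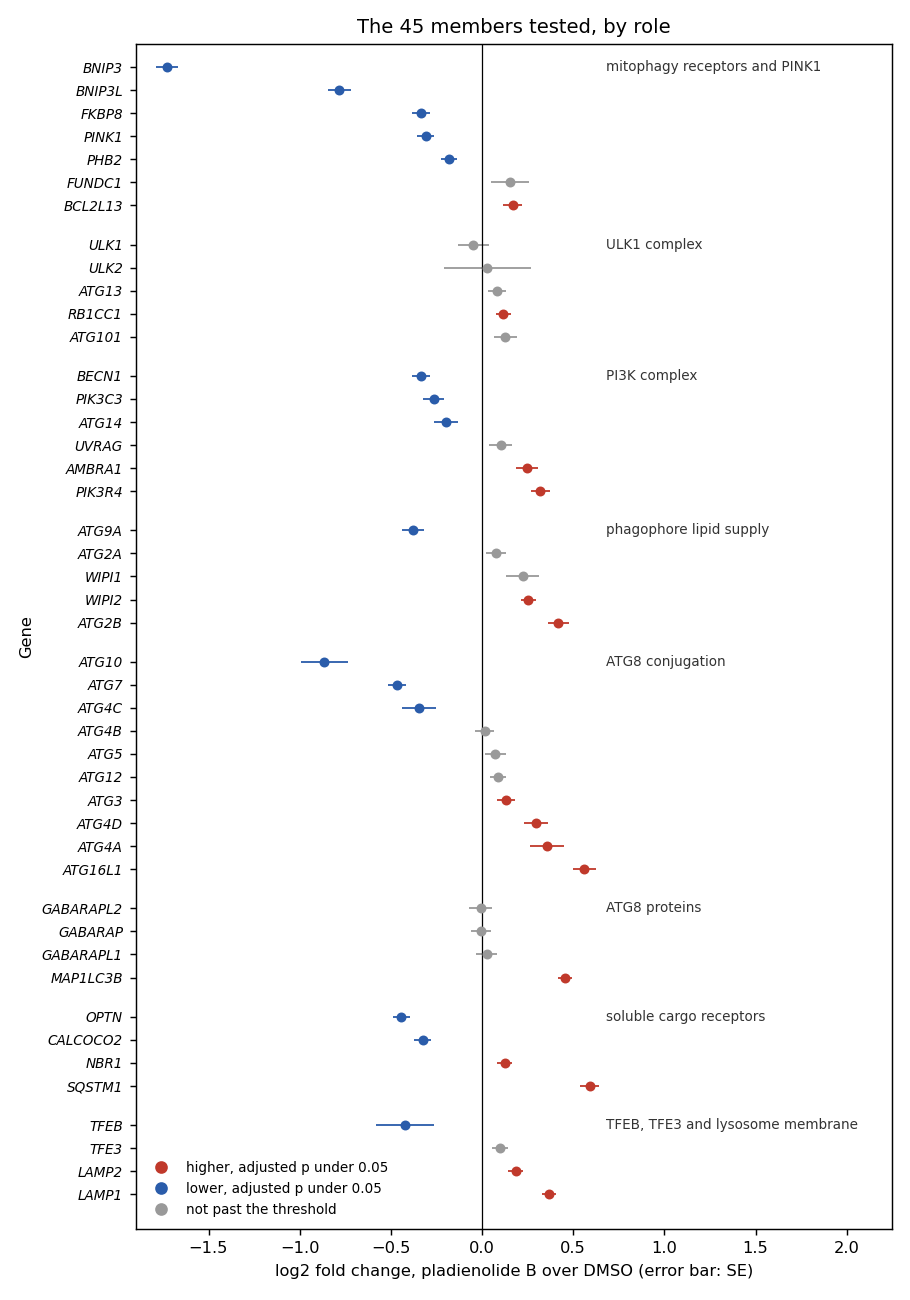
Log2 fold change between pladienolide B and DMSO (x axis) for the 45 members tested (y axis), grouped by role, with the SE as error bar. BNIP3 lies alone at -1.73, ATG10 and BNIP3L follow at -0.87 and -0.78, and all other members lie between -0.47 and 0.59.

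BNIP3, whose product tethers mitochondria to the autophagosome under low oxygen, fell furthest of all members. The DMSO samples had 8978, 7838 and 9618 adjusted reads and the pladienolide B samples 2559.9, 2616 and 2787. The highest treated sample was thus far below the lowest control. The mean fell from 8812 ± 901 to 2654 ± 118 (SD, n = 3 each), to 30.1% of the control level. The log2 fold change was -1.73 ± 0.06 (SE), and 28 of the 16178 genes had a lower one. It was -1.81 without DMSO replicate 2, the control with the lowest BNIP3. The gene spans 14.2 kb at chr10:131967684-131981923. PPP2R2D, on the opposite strand, overlaps it in the table and had 1634 to 1835 adjusted reads, with 1 value per gene and no stated strand setting.

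BNIP3L, also called NIX, is the paralog that removes mitochondria from maturing red cells. It had 5543, 4691 and 5869.5 adjusted reads in DMSO and 3056, 3125 and 3139 in pladienolide B. All treated samples were again below the controls, and the log2 fold change was -0.78 ± 0.06, or -0.88 without DMSO replicate 2. The ratio of BNIP3 to BNIP3L reads within a sample was 1.62, 1.67 and 1.64 in DMSO and 0.838, 0.837 and 0.888 in pladienolide B. BNIP3 therefore fell further than BNIP3L in every treated sample.

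The other 5 genes of this group moved less. FKBP8, a receptor of the outer membrane that also binds BCL2 proteins, had 3444, 3583 and 3629.7 adjusted reads in DMSO and 2951, 2629 and 2890.2 in pladienolide B (log2 fold change -0.33 ± 0.05). PHB2, an inner membrane protein exposed when the outer membrane ruptures, had 5940.1, 6359 and 5936 and then 5353, 5151 and 5593 (-0.18 ± 0.04). Each treated sample of either gene was below each control.

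PINK1 had 2205, 2263 and 2277 adjusted reads in DMSO and 1869, 1755 and 1822 in pladienolide B, so every treated sample was below the controls (log2 fold change -0.31 ± 0.05). PINK1-AS, transcribed from the opposite strand over the same locus, had 1544, 1540.2 and 1559.6 in DMSO and 1229, 1272 and 1214 in pladienolide B. Its reads ran at 68.9% of those of PINK1 in DMSO. Since the strand setting of the counting is not stated, the reads of PINK1 and PINK1-AS cannot be told apart with certainty.

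BCL2L13, a BCL2 family protein that binds LC3, was the member of this group that was called higher, from 1464, 1443 and 1448 adjusted reads to 1682, 1563 and 1648 (0.17 ± 0.05). The call was lost when pladienolide B replicate 1 was left out. FUNDC1, a receptor of hypoxic mitophagy, had 271, 252 and 224 in DMSO and 304, 254 and 272 in pladienolide B. Its samples overlapped, and it was not called. In all, 5 of the 7 genes were lower, 1 was higher and 1 was not called, beside 25.2% of all genes lower and 22.4% higher. The median log2 fold change of the 7 genes was -0.31. Without BNIP3 and BNIP3L the median of the remaining 5 was -0.18.

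**Figure D2:**
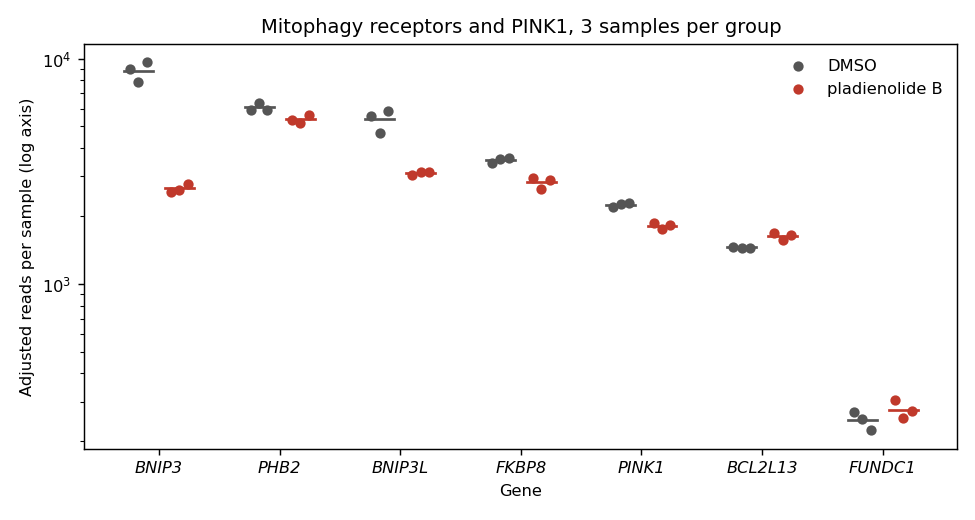
Adjusted reads per sample on a log axis (y axis) for the mitophagy receptors and PINK1 (x axis), with 3 DMSO samples in grey, 3 pladienolide B samples in red and a line at each mean. The groups are apart for all genes but FUNDC1, and the gap is widest for BNIP3, from 7838 or more to 2787 or fewer.

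Levels of different genes were compared per kilobase of the canonical GENCODE transcript. On this scale BNIP3 was the second most abundant member in DMSO, at 5715 ± 585 adjusted reads per kb (SD, n = 3), after SQSTM1 at 6626 ± 410. The ranges of both genes over the DMSO samples overlapped. PHB2 followed at 4408 ± 177 and LAMP1 at 2626 ± 40.2. In pladienolide B BNIP3 had the fifth highest level, at 1721 ± 76.6, below SQSTM1, PHB2, LAMP1 and MAP1LC3B. It stayed above BNIP3L, which had 1555 ± 176 in DMSO and 900.0 ± 12.9 in pladienolide B.

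The summed level of the 7 mitophagy genes was 15070, 14470 and 15660 adjusted reads per kb in DMSO and 9434, 9048 and 9689 in pladienolide B. BNIP3 made up 37.9% ± 2.4 of this sum in DMSO and 18.3% ± 0.64 in pladienolide B (SD, n = 3). BNIP3L made up 10.3% ± 0.79 and 9.59% ± 0.36. The share of PHB2 went from 29.3% ± 2.3 to 41.4% ± 0.38, although its own level was lower. With the merged length of all exons in place of the canonical transcript, the share of BNIP3 was 30.9% and 14.6%, and that of BNIP3L 18.4% and 16.7%, so the order of both genes in pladienolide B depends on the length chosen. With that length BNIP3 had the 10th highest level in pladienolide B, and LAMP1 the 6th highest in DMSO, while SQSTM1, BNIP3 and PHB2 kept the first 3 places in DMSO.

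**Figure D3:**
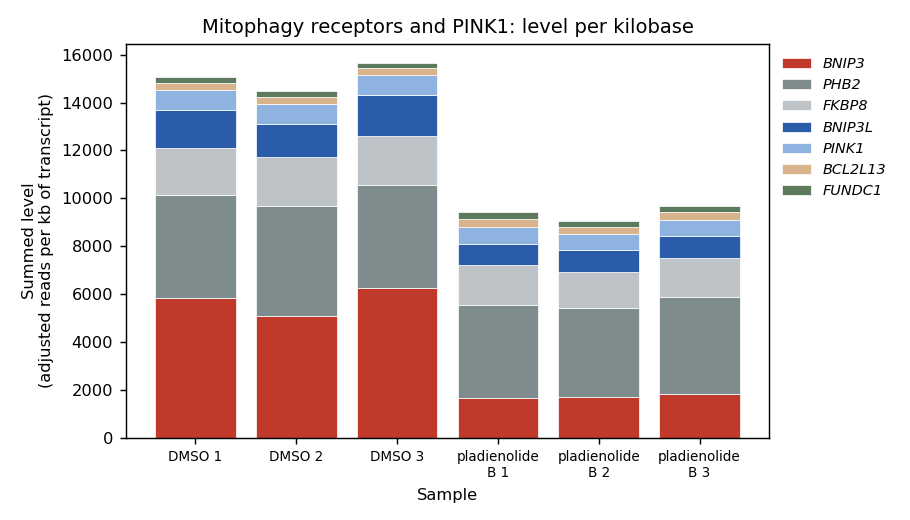
Stacked level of the 7 mitophagy genes in adjusted reads per kb of canonical transcript (y axis) in each of the 6 samples (x axis). The total is 14470 or more in the DMSO samples and 9689 or less in the pladienolide B samples, and the BNIP3 part at the base shrinks most.

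No gene of the ULK1 complex differed by more than 0.13 on the log2 scale. Of its 5 genes, RB1CC1, the scaffold FIP200, was called higher, from 4626, 4483 and 4659 adjusted reads to 4918, 5047 and 4961 (0.12 ± 0.04), and 5 of the 14 alternatives in processing lost this call. ATG13 and ATG101, which bridge the complex, were not called, with log2 fold changes of 0.08 and 0.13. The kinase genes ULK1 and ULK2 were not called either, and ULK2 had 28 to 33 adjusted reads in every sample. ULK1 had 1829, 1394 and 1931 in DMSO and 1656, 1702 and 1578 in pladienolide B. DMSO replicate 2 was its lowest sample, and without that library ULK1 was called lower, at -0.19 instead of -0.05.

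Genes of the lipid kinase complex went in both directions. BECN1, its regulatory subunit, had 1738, 1797 and 1777 adjusted reads in DMSO and 1384, 1431 and 1392 in pladienolide B (-0.34 ± 0.05). The catalytic subunit gene PIK3C3 (-0.26) and ATG14 (-0.20), which brings the complex to autophagosomes, were also lower, though ATG14 lost its call in 4 of 14 alternatives. PIK3R4, the subunit that anchors PIK3C3, was higher (0.32), and so was AMBRA1 (0.25), which binds BECN1. UVRAG, of the endosomal form of the complex, was not called (0.10). CNTD1, which overlaps BECN1 on the opposite strand, went from 562, 564.5 and 565 adjusted reads to 449, 445 and 425. Its reads ran at 31.8% of those of BECN1 in DMSO. With no stated strand setting, the reads of BECN1 and CNTD1 cannot be told apart with certainty.

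Among the genes that supply lipid to the growing membrane, ATG2B and ATG9A were opposed. ATG2B, a lipid transfer protein, rose from 995, 1018 and 1039 adjusted reads to 1274, 1424 and 1386 (0.42 ± 0.06), whereas its paralog ATG2A was not called (0.08). ATG9A, a lipid scramblase, fell from 1972, 1754 and 1921 to 1325, 1530.2 and 1483 (-0.38 ± 0.06). The phosphoinositide binding proteins WIPI2 (0.25, called) and WIPI1 (0.22, not called) complete this group. PRKAR1A, opposite to WIPI1, had more reads than WIPI1 in every sample.

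The 10 genes of ATG8 conjugation and processing included falls of ATG10 and ATG7. ATG10, the E2-like enzyme that joins ATG12 to ATG5, had 188, 174 and 160.4 adjusted reads in DMSO and 91.8, 95.01 and 98.2 under treatment (-0.87 ± 0.13), a low level in both groups. ATG7, the E1-like enzyme that acts before it, went from 1566, 1584 and 1543 to 1112, 1127 and 1151 (-0.47 ± 0.05). No treated sample of either gene reached the lowest control.

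ATG16L1, which directs the ATG12-ATG5 conjugate to the membrane, rose from 708, 644 and 659.6 adjusted reads to 969, 968 and 1029 (0.56 ± 0.06). The E2-like enzyme gene ATG3 was also called higher (0.13), a call that 7 of 14 alternatives lost. ATG5 (0.07) and ATG12 (0.09), the partners of the conjugate, were not called. The 4 ATG4 proteases, which trim and release ATG8 proteins, were split: ATG4A (0.35) and ATG4D (0.29) were higher, ATG4C (-0.35) was lower and ATG4B, at 0.01, was not called. Thus 4 of the 10 genes were higher, 3 lower and 3 not called. VGLL4, opposite to ATG7, had 1104 to 1198 adjusted reads, and KRI1, opposite to ATG4D, had 1327 to 1456, more than ATG4D itself.

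Of the 5 ATG8 genes, only MAP1LC3B, which codes for the LC3 protein most used as an autophagosome marker, was called. It had 4313, 4367 and 4499 adjusted reads in DMSO and 6045, 6157 and 5858 in pladienolide B (0.45 ± 0.04), with all treated samples above the controls. The 3 GABARAP genes were not called, and their groups overlapped. GABARAP had 1553 to 1802 adjusted reads in the controls and 1658 to 1722 after treatment, GABARAPL1 had 1213 to 1319.8 and 1217 to 1363, and GABARAPL2 had 624 to 654 and 635 to 643. All 3 log2 fold changes lay from -0.0073 to 0.024 and changed sign between alternatives. MAP1LC3A had 0 reads in 5 samples and 2 reads in pladienolide B replicate 1, below the 3 reads taken as a floor, so no fold is given.

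The ratio of MAP1LC3B to GABARAPL2 reads within a sample was 6.59 to 7.0 in the controls and 9.22 to 9.58 after treatment. Per kilobase, MAP1LC3B made up 43.8% ± 1.2 of the ATG8 sum in DMSO and 51.7% ± 0.19 in pladienolide B, and GABARAP 27.6% ± 2.0 and 23.6% ± 0.42. With the merged exon length the shares were 38.5% ± 1.4 and 46.1% ± 0.25 for MAP1LC3B. For GABARAP they were 38.3% ± 2.3 and 33.4% ± 0.53, so the order of both genes in DMSO depends on the length chosen. MAP1LC3B2, a copy of MAP1LC3B, was listed with 6.0 to 17.9 adjusted reads and GABARAPL3 with 2.07 or fewer. How the counting treated reads that match both copies is not stated.

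All 4 soluble cargo receptors were called, 2 in each direction. SQSTM1, the ubiquitin-binding receptor p62, had 19234, 17502 and 19719 adjusted reads in DMSO and 27919, 30379 and 26637 in pladienolide B, the largest rise of any member (0.59 ± 0.05). The lowest treated sample was well above the highest control, and 984 of the 16178 genes had a higher log2 fold change. NBR1, a related receptor, was called higher by a small amount (0.12), which 4 of 14 alternatives lost. OPTN, which serves in PINK1-dependent mitophagy, fell from 6362, 6269 and 6407 to 4662, 4966 and 4397 (-0.44 ± 0.05), and CALCOCO2, the receptor NDP52, was also lower (-0.33).

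Within single samples the ratio of SQSTM1 to OPTN reads was 3.02, 2.79 and 3.08 in DMSO and 5.99, 6.12 and 6.06 in pladienolide B. SQSTM1 made up 67.2% ± 1.2 of the level of the 4 receptors per kilobase in DMSO and 78.8% ± 0.7 in pladienolide B. With the merged exon length its share was 56.3% ± 1.3 and 70.3% ± 0.77. MGAT4B, which overlaps SQSTM1 on the opposite strand, went the other way, from 6114, 5846.5 and 6305 adjusted reads to 4891, 5059 and 5108.

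TFEB, a regulator of lysosomal and autophagy genes, had 124, 95.8 and 125 adjusted reads in DMSO and 74.2, 92.7 and 89.2 in pladienolide B (-0.42 ± 0.16). The highest treated and the lowest control sample came within a few reads of each other, and 8 of 14 alternatives lost the call. TFE3, its more abundant relative, was not called (0.10). The lysosomal membrane proteins LAMP1 and LAMP2 were both higher. LAMP1, whose promoter holds the 5 CACGTG sites shown above, had 7174, 6969 and 7135 adjusted reads in DMSO and 9237, 9129 and 9099 in pladienolide B (0.37 ± 0.04), and LAMP2 differed by 0.19.

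**Figure D4:**
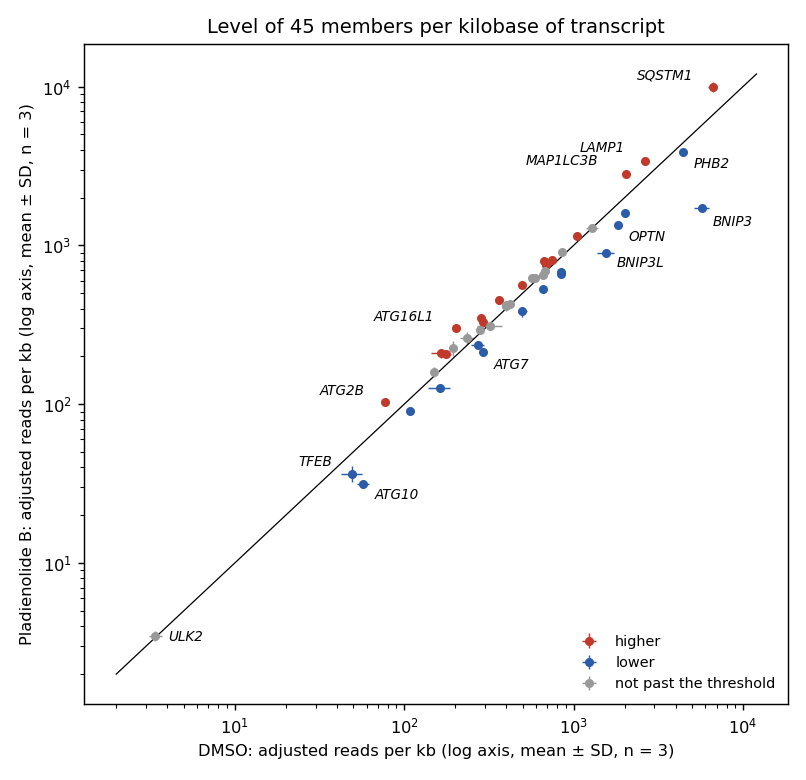
Mean level of 45 members in DMSO (x axis) and pladienolide B (y axis), in adjusted reads per kb of canonical transcript on log axes, with SD bars (n = 3) and the line of equal level. BNIP3 lies furthest below the line among abundant genes and SQSTM1 is highest in both groups, at 6626 and 9969.

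Over the 39 members other than the mitophagy group, 38 were tested. Of these, 14 were called higher, 10 lower and 14 neither, beside 22.4% of all genes higher and 25.2% lower. Both directions occurred in 5 of the 7 role groups of these members. The others were the ULK1 complex and the ATG8 genes, with 1 call each. The median log2 fold change of the 38 was 0.08, and the median size regardless of direction was 0.23. Spearman's rho between gene span and log2 fold change was 0.06 over 45 members. It was 0.08 for the number of exons and -0.07 for the DMSO level per kilobase. These points share the same 6 libraries and are given as a description. Of the 46 members, 8 were overlapped in the table by a gene on the opposite strand with at least 20% of their own reads. With no stated strand setting, the reads of these members and of the genes over them cannot be told apart with certainty.

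Other genes of the same pathways were taken from 7 lists that hold 123 genes, of which 117 were tested. These lists were chosen with earlier results of these data known, so their shares and p-values are given as a description. Of the 25 other mitophagy genes tested, 9 were higher, 5 lower and 11 not called. That is 56% called, against 47.6% of all genes. FBXL4, part of a ubiquitin ligase that limits BNIP3 and BNIP3L protein, had 355, 347 and 399 adjusted reads in DMSO and 208, 219.7 and 206 in pladienolide B (-0.79 ± 0.09, adjusted p = 3.1e-06 by limma). NIPSNAP2, which marks damaged mitochondria, fell from 1260.2, 1378 and 1290.1 to 869, 716 and 738 (-0.76 ± 0.07, adjusted p = 1.8e-07 by limma).

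Fusion and lysosome genes went in both directions, and the counts of either list are a description beside the 22.4% of all genes that were higher and the 25.2% that were lower. Of 14 genes of autophagosome-lysosome fusion, 8 were higher and 3 lower around a median of 0.18, with VPS18 (0.49) and VPS41 (-0.63), both of the HOPS tethering complex, at opposite ends. Of 30 lysosome genes, 15 were higher and 6 lower, with a median of 0.11. NEU1, a sialidase, rose from 1234, 1133 and 1201 adjusted reads to 1823, 1929 and 1735 (0.62 ± 0.06), and GLA, an alpha-galactosidase, fell from 579.7, 616 and 612 to 366, 350.0 and 317 (-0.81 ± 0.08). Further autophagosome formation genes (3 higher, 2 lower of 11) and cargo receptors (2 higher, 4 lower of 12) were split. Their largest falls were those of ATG9B (-0.83), ATG16L2 (-0.52) and the glycogen receptor gene STBD1 (-0.55), and RTN3, a receptor for the endoplasmic reticulum, was higher (0.26).

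Transcripts known to be induced by HIF were mostly lower. Of 17 in the list, 16 were tested, and CA9 was below the filter. Of these 16, 15 were called lower and none higher, with a median of -0.96 on the log2 scale. That is 93.8% called, against 47.6% of all genes. As this list too was chosen with earlier results of these data known, nothing is read from the share. SLC2A1, the glucose transporter GLUT1, fell from 4473, 3245 and 4364 adjusted reads to 1311, 1525 and 1521 (-1.46 ± 0.09, adjusted p = 1.7e-09 by limma), and ANKRD37 from 315, 268 and 296 to 108, 124 and 129 (-1.28 ± 0.12). BNIP3, at -1.73, lay below all 16 of them and BNIP3L within their range. DMSO replicate 2, which had the lowest BNIP3 and BNIP3L of the controls, also had the lowest control value of 15 of the 16. The same library had the lowest control value of 22 of the 45 members tested and of 3 of the 7 mitophagy genes. Whether BNIP3, BNIP3L and these transcripts changed for a shared reason was not tested.

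The genes of HIF subunits went the other way. HIF1A had 3770.2, 5462 and 3499 adjusted reads in DMSO and 7553, 7469 and 7099 in pladienolide B (0.82 ± 0.10, adjusted p = 6.3e-06 by limma), with DMSO replicate 2 nearest the treated samples. Without that library the difference was 1.02. EPAS1, which codes for HIF2A, had 172, 142 and 214 and then 331, 292 and 245 (0.72 ± 0.14). Of the 9 tested genes that regulate autophagy at transcription, these included, 5 were higher and 2 lower. That is 77.8% called, against 47.6% of all genes. MITF, a relative of TFEB, was not called (-0.05). Protein levels and mitophagy itself were not measured here.

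**Figure D5:**
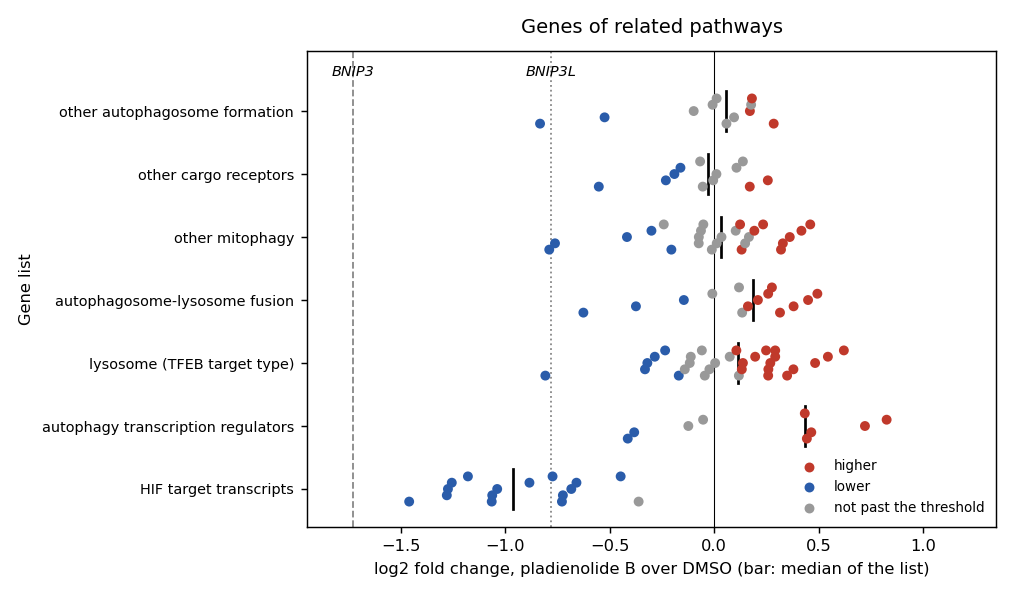
Log2 fold change between pladienolide B and DMSO (x axis) for the tested genes of 7 related lists (y axis), with 1 point per gene and a bar at each median. Dashed and dotted lines mark BNIP3 and BNIP3L. The HIF target transcripts lie from -1.46 to -0.36 with a median of -0.96, and the other lists have medians between -0.03 and 0.43.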

How the data were processed

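RNA was sequenced from 3 DMSO and 3 pladienolide B samples of OVCAR8 cells. The submitters' processing notes list HISAT2, HTSeq 0.12.4, DESeq2 and hg19, whereas the methods of the study state hg38. Positions of 99.8% of 35922 symbols, and of all 46 members, overlapped those in GRCh38.p14. Gene models and strand setting of the counting are not given in the sources used here. The authors deposited for each gene and sample a library-size-adjusted signal, in the form of edgeR quantile-adjusted counts. The adjustment was inverted, and 100% of the values of 10 or more came out within 0.02 of a whole read, with 22621338 to 26130882 reads per sample. The authors also deposited their own fold changes and p-values, which were not used.

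Values were tested with limma 3.58.1 on log2(value + 1), with a variance trend, two-sided, and p-values were adjusted by Benjamini-Hochberg over the 16178 genes that passed filterByExpr in edgeR 4.0.16 (minimum 10, total 15). The pseudocount shrinks fold changes of low genes. SE values come from this fit. The 14 alternatives were other filters, a pseudocount of 0.1, no trend, edgeR with TMM or RLE and DESeq2 1.42.0 on recovered reads, a replicate block and each sample left out. The fit was tested on simulated data. Canonical transcript lengths came from GENCODE 44, and the merged exon length is an alternative chosen after seeing the data. Members and gene lists were chosen with earlier results of these data known. Genes given with values were the mitophagy and ATG8 genes, members differing by 0.5 or more or most within their role, the 2 largest called differences of each other list, HIF1A and MITF. A gene that this rule also names is not reported here. Other members are named to account for the whole list, and overlapping genes and markers for the result beside them.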

Additional observations from a re-analysis of the deposited data

How the results depend on the processing

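The counts of called genes stayed within 1.5 times under all 14 alternatives: 25 to 31 members, 5 or 6 of the mitophagy group and 6381 to 7855 of all genes. Of 630 fold changes of members recomputed, 581 kept their direction and side of the threshold. Calls were lost 29 times, in BCL2L13, RB1CC1, TFEB, ATG14, ATG3 and NBR1. Calls were gained 4 times, by WIPI1 in 3 alternatives and by ULK1 without DMSO replicate 2. Signs changed 16 times, in none of the called members, and the cause was not tested. With edgeR and RLE, GABARAP and GABARAPL2 had log2 fold changes of 0.0030 and 0.0027, and with DESeq2 0.0029 and 0.0027. Leaving out 1 sample, the fold changes ranged from -0.068 to 0.039 for GABARAP, from -0.014 to 0.067 for GABARAPL1, from -0.028 to 0.0067 for GABARAPL2, from -0.19 to 0.043 for ULK1, from -0.042 to 0.085 for ULK2 and from -0.014 to 0.040 for ATG4B. The call of ULK1 without DMSO replicate 2 rests on leaving out its lowest control, and with all samples its groups overlapped. Same-numbered samples shared no visible deviation, with correlations of -0.018, -0.018 and 0.0026. With 3 samples per group, this cannot show whether they were prepared as pairs. With the replicate block, 28 members and 7349 genes were called. ULK2, with 28 to 33 adjusted reads per sample, had the largest SE of the members tested, and TFEB the next.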
